A study of Mus musculus with 11 samples.

Results

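A set of 10 genes of the blood vessel lining and its growth signals was followed through the ageing mouse ovary. They were taken from the deposited count table by gene symbol, out of its 54232 genes, and are Pecam1, Cdh5, Kdr, Flt1, Tek, Vwf, Emcn, Vegfa, Angpt1 and Angpt2. RNA came from whole ovaries of wild-type mice aged 2 months (4 libraries), 18 months (4 libraries) and 24 months (3 libraries), with no treatment or engineered allele in any group, and was sequenced from polyadenylated transcripts with a strand-marking kit. The labels give no strain and do not say whether each library came from a separate animal, so the p-values measure the spread between these samples, which may be in part technical. The libraries labelled 24 month carry "22m" in their library names, and the label is used here.

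Vessels grow and are kept in place by 2 signalling systems. Vegfa, a ligand secreted by hypoxic and hormone-producing cells, acts on the endothelial receptor Kdr (VEGFR2), while Flt1 (VEGFR1) binds the same ligand and in large part acts as a decoy. Angpt1, made mainly by the cells around vessels, activates the endothelial receptor Tek (TIE2) and steadies vessels, and Angpt2, released by endothelium, competes with it. In the ovary, vessels grow anew in each cycle around growing follicles and most of all into the corpus luteum, the progesterone-making gland that forms from the ruptured follicle.

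Total counts ran from 26061630 to 33407509 in 9 of the 11 libraries and were 5231724 and 8892915 in the replicate 3 and replicate 4 libraries of the 18 month group. The counts of those 2 libraries differed by little more than sampling noise (chi-square per gene 1.10 over 17173 genes), where every other pair within an age reached at least 28.7. Their sum was used as a single sample, called 18 month replicate 3-4, leaving 4, 3 and 3 samples. Levels are given as CPM, read counts scaled to a common library size by edgeR's TMM method, and differences as log2 fold changes from edgeR's quasi-likelihood F-test on all 20331 genes with enough counts, with Benjamini-Hochberg adjustment over all of them at 0.05. All 10 genes passed the filter on low counts. Both comparisons with 2 months use the same 4 samples, so they are not independent of each other. Whole ovary was measured, so fewer endothelial cells and less RNA per cell cannot be told apart.

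The ovaries held endothelial RNA at every age, and the lowest value of any of the 7 endothelial genes in any sample was 8.33 CPM, of Vwf. The genes that passed the threshold were Vwf, the clotting and adhesion protein stored by endothelial cells, and Vegfa. Vwf was higher at 18 and at 24 than at 2 months, and Vegfa was lower at 24 than at 2 months. Under 19 alternative settings of the analysis the Vegfa call was lost in 9 and the 18 month Vwf call in 4. The endothelial genes Pecam1, Kdr, Flt1, Tek and Emcn and both angiopoietins passed the test in none of the 3 comparisons. Cdh5, VE-cadherin of the endothelial junctions, was lower in every 24 month sample than in every younger one. It just missed the threshold against 2 months (edgeR adjusted p = 0.0506), where Vegfa just passed it (0.0446).

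Between 2 and 18 months 1 of the 10 genes was called, higher, against 11.6% of all tested genes in either direction (6.04% higher, 5.51% lower). Between 18 and 24 months 0 of 10 were called by edgeR and 0 had an unadjusted p under 0.05. Of all genes edgeR called 0.00492%, which is 1 of 20331 and became 0 with the replicate number as a block. DESeq2's Wald test also called 0 of 10, where it called 194 of all genes. Between 2 and 24 months 2 of 10 were called, 1 higher and 1 lower, against 35.0% of all genes (19.2% higher, 15.8% lower). Over the alternatives the count was 0 to 1 in the first comparison and 1 to 3 in the last. A set of 10 genes is too small to place these shares above or below the background. Across the 10 genes the median log2 difference between 24 and 2 months was 0.03, which is also the median of all tested genes.

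**Figure D1:**
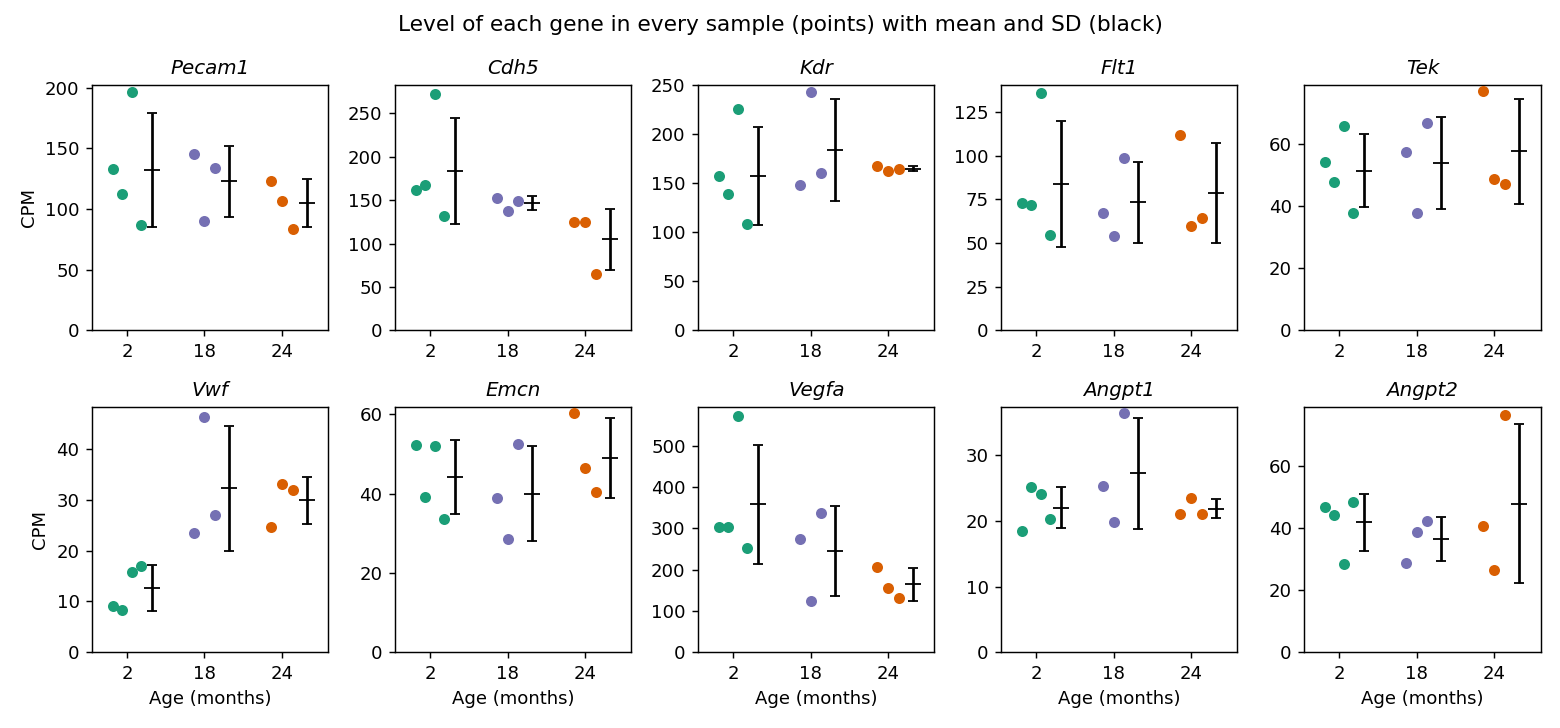
CPM of each of the 10 genes (y axis, linear, starting at 0) in the 4, 3 and 3 samples of the 2, 18 and 24 month groups (x axis), with 1 point per sample and the group mean ± SD in black. The Vwf samples of both older groups lie above all 2 month samples, and 2 month replicate 3 is the highest of its age for Vegfa, Cdh5, Pecam1, Kdr, Flt1 and Tek.

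The ligand Vegfa lies on chromosome 17 (mm10, 46016993 to 46032369, minus strand), with 13 annotated transcripts that gene counts do not separate. The stretch just before its start site and those of its 2 receptor genes, which did not pass the test where Vegfa did, are printed to show the sequence from which ligand and receptors are transcribed. They come from the RefSeq table for GRCm38.p6, which held 5 of the 10 genes (Vegfa, Kdr, Flt1, Tek and Emcn). Each covers the 250 bases before a start site, 5′ to 3′ on the gene's own strand, and capitals mark the GC box GGGCGG or its reverse CCGCCC.
Vegfa, chr17:46032378-46032627, minus strand: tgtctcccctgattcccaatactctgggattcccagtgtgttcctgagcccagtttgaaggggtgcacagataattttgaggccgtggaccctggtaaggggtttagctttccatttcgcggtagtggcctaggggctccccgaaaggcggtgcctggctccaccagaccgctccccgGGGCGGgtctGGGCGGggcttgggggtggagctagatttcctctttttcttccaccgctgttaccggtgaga
Kdr, chr5:75978456-75978705, minus strand: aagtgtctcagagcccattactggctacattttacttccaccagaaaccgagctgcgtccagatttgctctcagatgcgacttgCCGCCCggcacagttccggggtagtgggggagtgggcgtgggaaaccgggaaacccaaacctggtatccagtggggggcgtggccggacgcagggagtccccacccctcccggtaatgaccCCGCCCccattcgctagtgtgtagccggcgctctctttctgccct
Flt1, chr5:147726012-147726261, minus strand: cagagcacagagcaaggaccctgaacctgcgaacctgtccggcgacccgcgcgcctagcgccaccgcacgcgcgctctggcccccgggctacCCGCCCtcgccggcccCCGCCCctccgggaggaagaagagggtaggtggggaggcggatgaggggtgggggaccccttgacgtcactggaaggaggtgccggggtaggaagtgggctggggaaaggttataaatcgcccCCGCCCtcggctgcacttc
The GC box, read on both strands, occurred 2 times in the Vegfa window, 2 times in that of Kdr and 3 times in that of Flt1, and 32.7% of 32851 RefSeq promoter windows of this length held at least 1. The Tek and Emcn windows held 0. The core GGAA (reverse TTCC) bound by ETS factors, which include regulators of endothelial genes, occurred 6 times before Vegfa, 4 times before Kdr, Flt1 and Emcn and 2 times before Tek, and 93.4% of all windows held at least 1. The hypoxia element core ACGTG (reverse CACGT) was not among the letters of these windows of the 5 genes, and 16.6% of all windows held it. The table has a second Vegfa start site further into the gene, whose window (chr17:46025164-46025413, minus strand) held 1 hypoxia element core, 1 GC box and 2 GGAA cores. A GC box and a GGAA core can overlap in 2 letters, which occurred in none of the windows. The matches are a description of the letters and not binding sites.

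Vegfa stood at 303, 305, 572 and 253 CPM in the 2 month samples, at 274, 125 and 339 CPM at 18 months, and at 208, 155 and 131 CPM at 24 months. Every 24 month sample was below every 2 month sample, 2 month replicate 3 stood far above the rest, and the 18 month samples overlapped with both other ages. The means were 358 ± 145 CPM (SD, n = 4), 246 ± 110 CPM (n = 3) and 164 ± 39.4 CPM (n = 3). Vegfa fell 2.18-fold from 2 to 24 months, a log2 difference of -1.12 with an SE of 0.38 (95% interval -1.97 to -0.27, edgeR adjusted p = 0.0446). The steps from 2 to 18 months (log2 difference -0.54, edgeR adjusted p = 0.360) and from 18 to 24 months (-0.58, adjusted p = 0.613) did not pass. The call depended on single samples. Without 2 month replicate 3 the log2 difference was -0.83 (edgeR adjusted p = 0.0900), without 24 month replicate 3 it was -0.96 (adjusted p = 0.136). It was also lost without 2 month replicate 1 (0.0660) or 2 (0.0629), 18 month replicate 1 (0.0570) or 24 month replicate 2 (0.119), and with the replicate number as a block (0.0515). Of 19 alternative settings 10 kept it.

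Some genes of the corpus luteum fell as well. The 7 luteal genes of the list summed to between 30064 and 70802 CPM at 2 months, with replicate 3 the highest, between 22093 and 36535 CPM at 18 months and between 6099 and 22953 CPM at 24 months. The largest parts at 2 months were Star, Cyp11a1 and Hsd3b1, with means of 13263, 12107 and 9635 CPM. These are genes of steroid synthesis that other hormone-producing cells of the ovary use too, so the sum does not measure luteal tissue alone. Cyp11a1 and Hsd3b1 were not among the genes called. Star, which carries cholesterol into mitochondria for steroid synthesis, fell from 13263 ± 6069 CPM at 2 months to 1100 ± 472 CPM at 24 months (log2 difference -3.59, SE 0.50, edgeR adjusted p = 0.00221). The median log2 difference of the 7 luteal genes between 24 and 2 months was -1.22, with between 1 and 6 calls over the alternatives. Of the 7, 3 (42.9%) were lower and 0 higher, against 15.8% of all genes called lower. Besides Star these were Ptgfr, the receptor for the luteolytic prostaglandin (-1.92, adjusted p = 0.0327, up to 0.0993 over the alternatives), and Akr1c18, which inactivates progesterone (-5.64, 0.0388, up to 0.120), while the prolactin receptor Prlr did not pass (-1.01, 0.0783). The 7 granulosa genes summed to between 2027 and 3004 CPM at 2 months, 1146 and 1853 CPM at 18 months and 1338 and 2548 CPM at 24 months, most of it Inha, the inhibin alpha subunit. Of these 7 genes 3 (42.9%) were lower at both older ages: Amh, the anti-Müllerian hormone, Fshr, the FSH receptor, and Esr2, estrogen receptor beta. Of all genes 5.51% were lower at 18 months and 15.8% at 24 months. At 18 months the 3 calls were kept in 11, 13 and 16 of 19 alternatives, and the list's count was 0 to 4. Between 24 and 2 months the log2 differences were -2.81, -1.80 and -1.75 (edgeR adjusted p = 0.00559, 0.00421 and 0.00233), each kept in all 19 alternatives. Inha did not pass (-0.46, adjusted p = 0.246). Granulosa and luteal cells are known sources of Vegfa, and the part of these lists in the Vegfa result was not tested.

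The receptors of the ligand kept no such order. Kdr (chromosome 5, 75932827 to 75978458) was counted at 157, 139, 226 and 108 CPM at 2 months, at 148, 243 and 161 CPM at 18 months and at 168, 163 and 164 CPM at 24 months. The 24 month samples lay close together, inside the range of the younger groups. From 2 to 24 months the log2 difference of Kdr was 0.07 with a 95% interval of -0.48 to 0.61. Flt1 (chromosome 5, 147561604 to 147726011) stood at 72.7, 71.9, 136 and 54.4 CPM at 2 months, at 67.1, 53.8 and 98.7 CPM at 18 months and at 112, 59.8 and 64.3 CPM at 24 months. All 3 ages overlapped for Flt1, with a log2 difference between 24 and 2 months of -0.09 (95% interval -0.87 to 0.69), and its soluble and membrane forms are counted together. These intervals leave room for changes of both signs, so a missed threshold does not show equal levels.

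Within a sample, a ratio of ligand to receptor hardly depends on library scaling. The log2 ratio of Vegfa to Flt1 was 2.11 ± 0.0741 at 2 months (SD, n = 4), 1.67 ± 0.417 at 18 months (n = 3) and 1.10 ± 0.249 at 24 months (n = 3). All 6 older samples lay below all 4 young ones. An exact two-sided permutation test over the 3 ages (4200 arrangements) gave p = 0.0152, and 0.0632 after Benjamini-Hochberg adjustment over the 9 ratios examined. The log2 ratio of Vegfa to Kdr was 1.16 ± 0.166, 0.34 ± 1.13 and -0.03 ± 0.320 at the 3 ages (exact permutation p = 0.0814, adjusted p = 0.105). Its 24 month samples all lay below the 2 month samples, while 18 month replicate 2 stood at -0.96, below every other sample. Flt1 over Kdr averaged -0.95, -1.34 and -1.13 on the log2 scale (exact permutation p = 0.635), so the balance of the receptors showed no order by age beyond its spread.

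Cdh5 (chromosome 8, 104101625 to 104144511) stood at 162, 167, 273 and 132 CPM at 2 months, at 153, 137 and 150 CPM at 18 months and at 125, 125 and 64.5 CPM at 24 months. The 24 month samples lay below all samples of both other ages, which overlapped with each other, and 24 month replicate 3 was the lowest. Means were 183 ± 61.3 CPM (SD, n = 4), 147 ± 8.43 CPM (n = 3) and 105 ± 34.9 CPM (n = 3). Between 24 and 2 months the log2 difference was -0.81 (SE 0.28, 95% interval -1.44 to -0.17, edgeR adjusted p = 0.0506), which did not pass. It passed under 4 of 19 alternatives, among them DESeq2's Wald test (adjusted p = 0.0173) and leaving out 2 month replicate 4 (edgeR adjusted p = 0.0415). Between 24 and 18 months it was -0.48 (edgeR adjusted p = 0.585). An antisense gene, Gm29682, overlaps Cdh5 with no shared exon base and held 88 counts in all against 42016.

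Pecam1 (CD31), an adhesion molecule of endothelial junctions and also of platelets and leukocytes, was counted at 133, 112, 197 and 86.6 CPM at 2 months, at 145, 89.7 and 134 CPM at 18 months and at 123, 107 and 83.9 CPM at 24 months. The groups overlapped in every comparison, and the log2 difference between 24 and 2 months was -0.34 (95% interval -0.96 to 0.28). Emcn, a sialomucin of venous and capillary endothelium, ranged from 33.5 to 52.2 CPM at 2 months, 28.5 to 52.4 CPM at 18 months and 40.5 to 60.2 CPM at 24 months. Its log2 difference between 24 and 2 months was 0.15 (95% interval -0.38 to 0.68).

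Vwf (chromosome 6, 125546774 to 125686679) stood at 9.10, 8.33, 15.8 and 17.1 CPM at 2 months, at 23.6, 46.4 and 27.0 CPM at 18 months and at 24.7, 33.1 and 31.99 CPM at 24 months. Both older groups lay wholly above the young one and overlapped with each other, and 18 month replicate 2 was the highest. Mean levels were 12.6 ± 4.51 CPM (SD, n = 4), 32.3 ± 12.3 CPM (n = 3) and 29.9 ± 4.57 CPM (n = 3). Vwf rose 2.57-fold from 2 to 18 months (log2 difference 1.36, SE 0.31, 95% interval 0.67 to 2.06, edgeR adjusted p = 0.0261). It was 2.38-fold higher at 24 than at 2 months (log2 difference 1.25, SE 0.31, interval 0.55 to 1.94, adjusted p = 0.0150), and the difference between the older ages was -0.11 (adjusted p = 0.915). The 24 month call held in all 19 alternatives, with log2 differences from 1.10 to 1.47. The 18 month call was lost without 2 month replicate 1 (edgeR adjusted p = 0.0812), 2 month replicate 2 (0.0657), 18 month replicate 2 (0.0900, log2 difference 1.01) or 18 month replicate 3-4 (0.0644).

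Megakaryocytes and platelets also make or carry Vwf. The 6 platelet genes of the list summed to between 4.45 and 6.27 CPM at 2 months, 8.28 and 12.3 CPM at 18 months and 12.1 and 15.7 CPM at 24 months. The largest part was Itga2b, with means of 2.85 CPM at 2 months and 10.5 CPM at 24 months, so the sum mostly follows 1 gene. Itga2b, the platelet fibrinogen receptor subunit, rose in both comparisons with 2 months (log2 differences 1.01 and 1.88, edgeR adjusted p = 0.0352 and 0.00211), and 3 of the 6 passed the filter on low counts. The Itga2b call at 18 months was kept in 10 of 19 alternatives and lost without any one of the 2 month samples, 18 month replicate 2 or 3-4, or 24 month replicate 2 (adjusted p up to 0.126), and that at 24 months was kept in all 19. The platelet chemokine Pf4 averaged 1.91 CPM at 2 months and 2.95 CPM at 24 months and did not pass (edgeR adjusted p = 0.0926). Ppbp, another platelet chemokine, averaged 0.164 CPM at 2 months and 0.195 CPM at 24 months and did not pass either, and Gp1bb had 0 counts in every sample. Gp5 and Gp9, both below the filter, averaged 0.249 and 0.104 CPM at 2 months and 0.143 and 0.155 CPM at 24 months. Over all tested genes, 6.04% were called higher at 18 months and 19.2% at 24 months than at 2 months. All 7 macrophage genes were called higher at both ages (4 to 7 at 18 months and 7 at 24 months over the alternatives). They include Csf1r, the receptor for the macrophage growth factor, Adgre1 (F4/80), the complement gene C1qa and the Fc receptor gene Fcgr1, with log2 differences of 1.16, 0.93, 1.31 and 1.54 between 24 and 2 months. Their sum went from between 190 and 239 CPM at 2 months to between 399 and 531 CPM at 18 months and between 456 and 511 CPM at 24 months. The 6 lymphatic genes summed to between 122 and 187 CPM at 2 months, 248 and 389 CPM at 18 months and 245 and 361 CPM at 24 months. Of these 6, Mmrn1 (multimerin 1, a protein that platelets store too) and Ccl21a, the chemokine of lymphatic endothelium, were higher at both older ages than at 2 months. Lyve1, the hyaluronan receptor, and Reln were called at 24 months. That is 33.3% of the list at 18 months and 66.7% at 24 months, against 6.04% and 19.2% of all genes called higher. At 18 months the call of Mmrn1 was lost under 3 of 19 alternatives (without 2 month replicate 1, 18 month replicate 2 or 18 month replicate 3-4, adjusted p up to 0.0783) and that of Ccl21a under 6 (the replicate block or leaving out 2 month replicate 1, 2 or 4 or 18 month replicate 1 or 2, up to 0.0880), and the list's count there was 0 to 4. All 4 calls at 24 months were lost without 24 month replicate 2, with adjusted p up to 0.123 for Lyve1, and those of Lyve1, Mmrn1 and Reln also without 2 month replicate 1. The part of these cell types in the Vwf result was not tested.

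**Figure D2:**
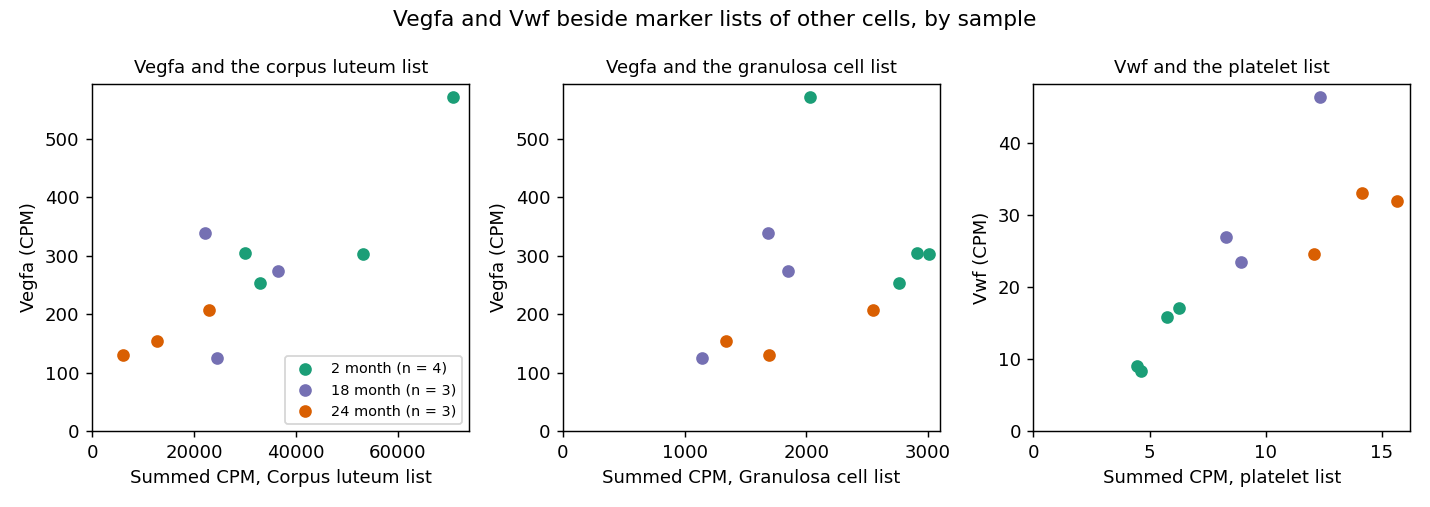
CPM of Vegfa or Vwf (y axis) against the summed CPM of a marker list (x axis) in each of the 10 samples, coloured by age: Vegfa against the corpus luteum and granulosa lists, Vwf against the platelet list. The sample with the highest Vegfa, 2 month replicate 3, also has the highest luteal sum, 70802 CPM, but the lowest granulosa sum of its age, 2027 CPM. At 18 months the sample with the highest Vegfa, replicate 3-4, has the lowest luteal sum of its age, 22093 CPM. The platelet sums, of which Itga2b is the largest part, lie higher in the older samples than at 2 months.

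The angiopoietin receptor Tek stood at 54.1, 47.5, 65.7 and 37.8 CPM at 2 months, at 57.2, 37.8 and 66.7 CPM at 18 months and at 76.9, 48.7 and 46.9 CPM at 24 months. The ages overlapped throughout, with a log2 difference between 24 and 2 months of 0.17 (95% interval -0.41 to 0.74). Its activating ligand Angpt1 was counted at 18.5, 25.1, 24.2 and 20.3 CPM at 2 months, at 25.4, 19.8 and 36.4 CPM at 18 months and at 21.0, 23.5 and 21.1 CPM at 24 months. Angpt1 was among the steadiest of the 10 genes at 24 months, with a coefficient of variation of 6.39%, and its log2 difference from 2 months was -0.01 (interval -0.45 to 0.43). Angpt2, the competing ligand, stood at 46.8, 44.1, 28.4 and 48.4 CPM at 2 months, at 28.7, 38.6 and 42.4 CPM at 18 months and at 40.6, 26.6 and 76.3 CPM at 24 months. Here 24 month replicates 2 and 3 were the lowest and the highest of all 10 samples, giving a coefficient of variation of 53.6% at that age and a log2 difference from 2 months of 0.19 (interval -0.54 to 0.93). The log2 ratio of Angpt2 to Angpt1 averaged 0.91, 0.45 and 0.99 at the 3 ages (exact permutation p = 0.521). Angpt2 lies within Mcph1 on the opposite strand with no shared exon base, and Angpt1 shares 737 exon bases with the antisense gene Gm17473, which held 35 counts against 6617. Whether counting used strand is not given in the sources used here.

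**Figure D3:**
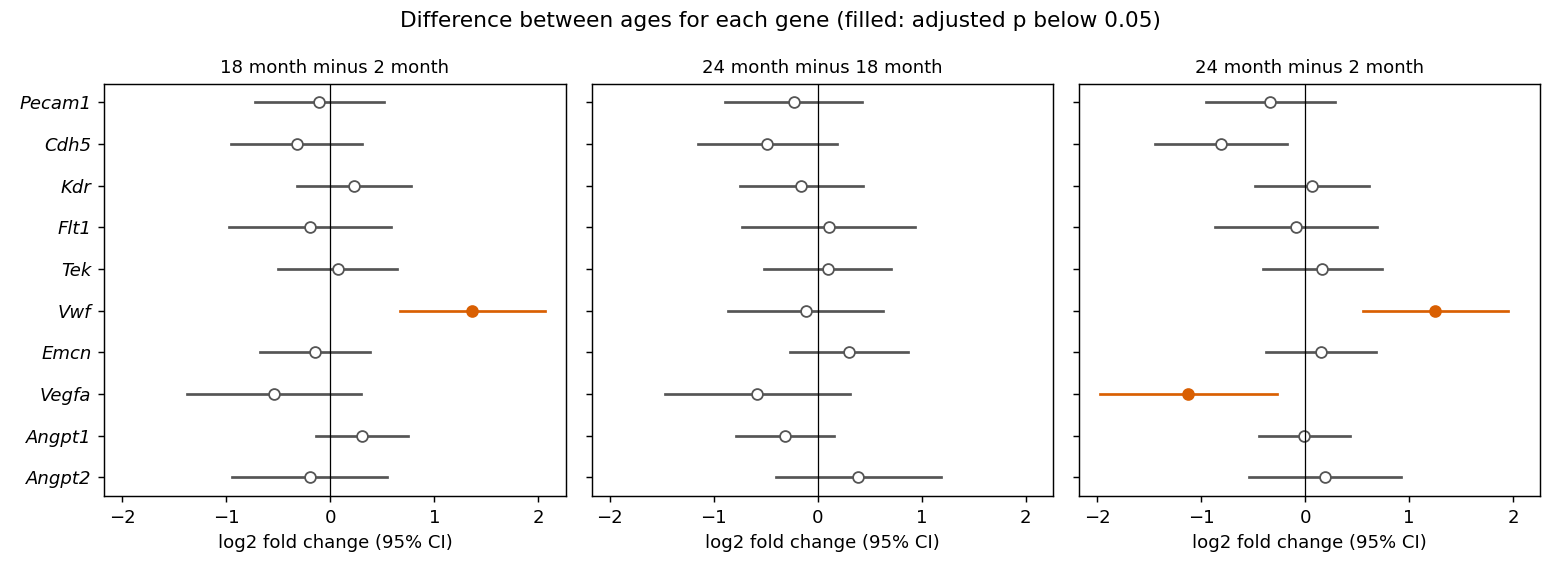
Log2 fold change of each of the 10 genes (x axis) with its 95% interval as a bar and filled points for adjusted p under 0.05, in the 3 comparisons between ages. The intervals of Vwf lie above 0 in both comparisons with 2 months, and those of Vegfa and Cdh5 lie below 0 between 24 and 2 months.

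Since Cdh5 is made almost only by endothelial cells, 5 of the other endothelial genes, all but Flt1, were also set against it within each sample. Vwf over Cdh5 averaged -3.88, -2.24 and -1.75 on the log2 scale at 2, 18 and 24 months (exact permutation p = 0.0190, adjusted p = 0.0632). Emcn over Cdh5 averaged -2.02, -1.91 and -1.05 (p = 0.0238, adjusted p = 0.0632, exact permutation), and Tek over Cdh5 -1.81, -1.48 and -0.84 (p = 0.0281, adjusted p = 0.0632, exact permutation). Kdr over Cdh5 went from -0.22 through 0.29 to 0.72 (exact permutation p = 0.0414, adjusted p = 0.0746) and Pecam1 over Cdh5 from -0.48 through -0.28 to 0.04 (p = 0.0786, adjusted p = 0.105). In all 5 of these ratios every 24 month sample lay above every 2 month sample. They share the denominator Cdh5, whose own 24 month samples all lay below those at 2 months, so they are not 5 separate results. How often other pairs of genes separate in this way was not computed. Cdh5 itself had a log2 difference of -0.81 between 24 and 2 months. Those of the numerators were 1.25 for Vwf, 0.15 for Emcn, 0.17 for Tek, 0.07 for Kdr and -0.34 for Pecam1. A ratio alone does not tell a rise of its numerator from a fall of Cdh5. None of the 9 ratios passed after adjustment, 5 had an unadjusted p under 0.05, and without 18 month replicate 2 the number that passed was 7.

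**Figure D4:**
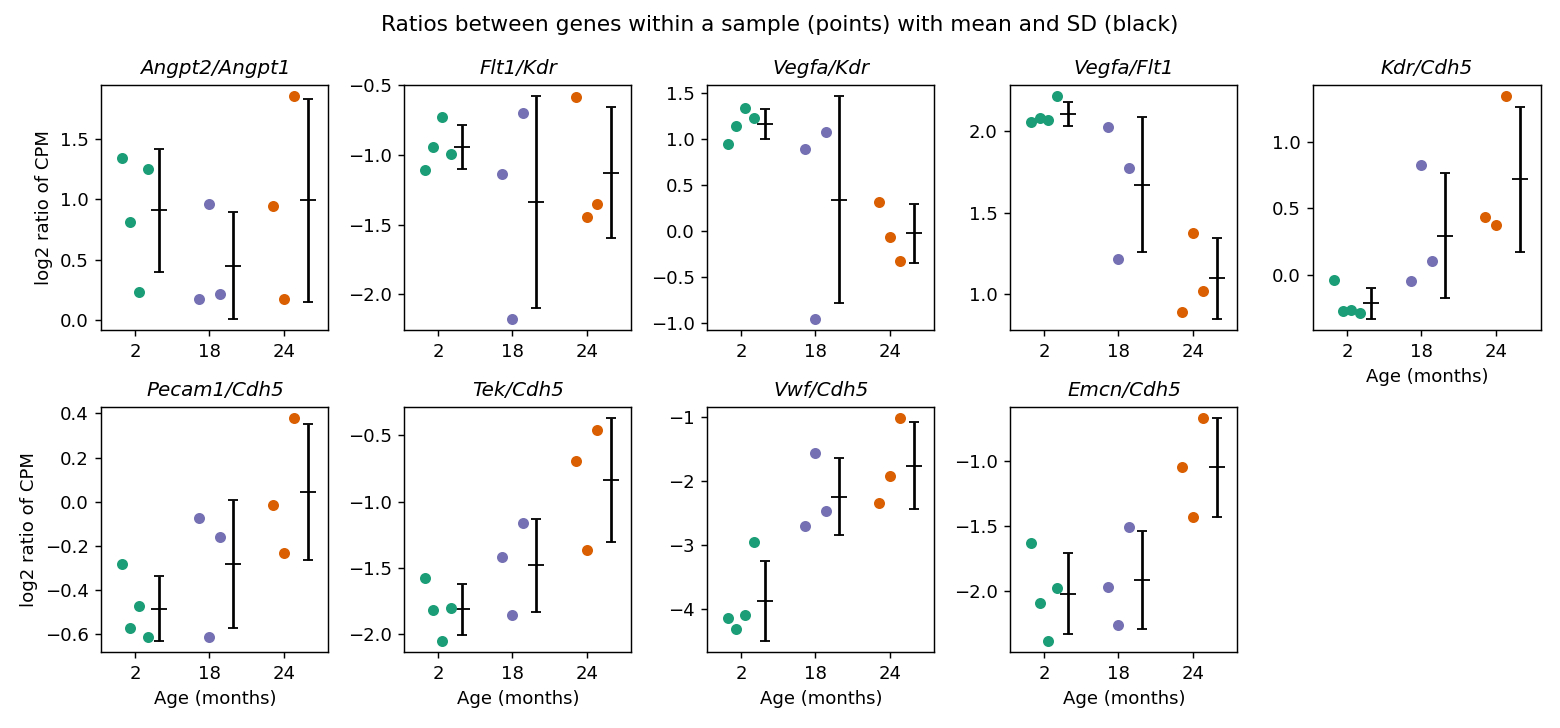
Log2 ratios between pairs of the 10 genes within each sample (y axis) by age (x axis), with 1 point per sample and the mean ± SD in black. The ratios of Vegfa to Flt1 are at most 2.03 in the older samples and at least 2.06 in the young ones, and the ratios to Cdh5 at 24 months lie above those at 2 months.

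Per kilobase of annotated exon, Vegfa had the highest level at every age, with means of 83.6, 57.4 and 38.4 CPM per kb at 2, 18 and 24 months. Cdh5 came next at 43.7, 34.9 and 24.9 CPM per kb, ahead of Pecam1 (21.2, 19.7 and 16.8) and Kdr (17.4, 20.4 and 18.3). Angpt2, Tek and Emcn lay between 7.39 and 12.97 CPM per kb, Flt1 between 5.42 and 6.21 and Angpt1 between 4.20 and 5.23. Vwf was lowest throughout, at 0.783, 2.01 and 1.86 CPM per kb. Most neighbours in this order were not separated: the sample ranges overlapped in 8, 6 and 7 of the 9 neighbouring pairs at the 3 ages. Only Angpt1 above Vwf was separated at all 3 ages, Cdh5 above Kdr and Pecam1 above Tek at 18 months, and Vegfa above Cdh5 at 24 months.

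Patterns over the 10 samples were compared among genes averaging at least 5 CPM with an established symbol, leaving out Gm, Rik, mt- and identifier names. The pattern most like that of Cdh5 was that of Myct1, an endothelial gene. Its root mean square difference of centred log2 CPM was 0.121, against a median of 0.523 over 11793 genes. Pcdh12, a protocadherin (0.138), Map1lc3a, the autophagy protein LC3A (0.144), and Lonp1, a mitochondrial protease (0.162), followed. For Vegfa the nearest genes were Dgat1, an enzyme of triglyceride synthesis (0.262), Fah (0.277), the transferrin receptor Tfrc (0.285) and Mmab (0.286), against a median of 0.670. For Angpt2 they were B9d1 (0.201), Cep128 (0.216), Spice1 (0.219) and Fam3c (0.230), against 0.518.

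Of 22 further genes of endothelial identity tested, 0 were called by edgeR between 2 and 18 months, against 11.6% of all genes. In that comparison 4 had an unadjusted p under 0.05 and DESeq2 called 4. Between 2 and 24 months 3 rose and 2 fell, which is 22.7% against the 35.0% of all genes, with a median log2 difference of -0.02, and the count was between 2 and 7 over the alternatives. Their summed level overlapped between ages, from 815 to 1548 CPM at 2 months, 1079 to 1395 CPM at 18 months and 957 to 1318 CPM at 24 months.

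Plvap, which builds the diaphragms of fenestrated and caveolar endothelium, stood at 21.8, 15.9, 29.4 and 16.2 CPM at 2 months, at 32.7, 26.6 and 159 CPM at 18 months and at 198, 109 and 82.8 CPM at 24 months. All 24 month samples and 1 of 3 at 18 months, replicate 3-4, were far above the young ovaries, and Plvap rose 6.25-fold between 2 and 24 months (log2 difference 2.64, SE 0.60, edgeR adjusted p = 0.0109). Gpihbp1, which anchors lipoprotein lipase on capillaries, was counted at 3.31, 3.39, 3.98 and 1.46 CPM at 2 months, at 5.17, 3.94 and 20.9 CPM at 18 months and at 19.1, 13.5 and 7.12 CPM at 24 months. It was 4.37-fold higher at 24 than at 2 months (edgeR adjusted p = 0.0241), and its high 18 month sample was again replicate 3-4. Sox17, an endothelial transcription factor, also rose, by 1.08 on the log2 scale (adjusted p = 0.0351). The Plvap call held in all 19 alternatives. That of Gpihbp1 was lost without 2 month replicate 1 or 4 or 24 month replicate 1 or 2 and with the replicate block (adjusted p up to 0.0726). Sox17 was lost with the replicate block, with no filter on low counts and without 2 month replicate 1, 2 or 4 or 24 month replicate 2 or 3 (up to 0.121).

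Clec14a, an endothelial lectin-like membrane protein, stood at 152, 174, 171 and 138 CPM at 2 months, at 92.02, 117 and 133 CPM at 18 months and at 78.7, 72.8 and 68.6 CPM at 24 months. The 3 ages did not overlap, and from 2 to 24 months Clec14a fell 2.16-fold (log2 difference -1.11, SE 0.14, edgeR adjusted p = 0.00205), a call kept in all 19 alternatives. Between 18 and 2 months its log2 difference was -0.48 (adjusted p = 0.0507). Myct1 also fell between 2 and 24 months, with a log2 difference of -0.91 (adjusted p = 0.0254), but not without 2 month replicate 1, 24 month replicate 2 or 24 month replicate 3 (adjusted p up to 0.0743).

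**Figure D5:**
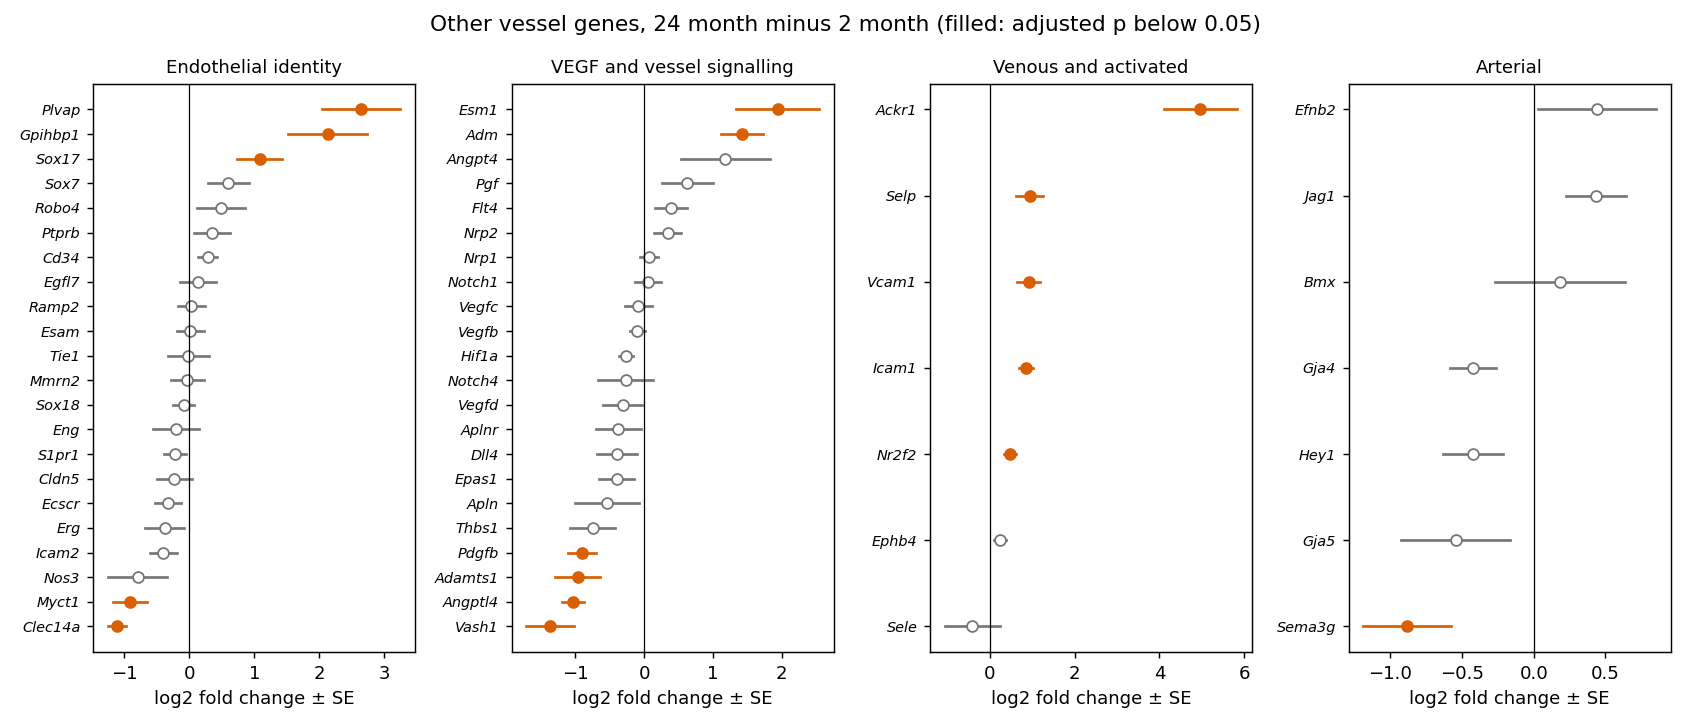
Log2 fold change between 24 and 2 months (x axis) of each tested gene of the endothelial identity, VEGF signalling, venous and arterial lists (1 row per gene), with SE as bars and genes of adjusted p under 0.05 filled. Venous and activation genes lie mostly above 0, and the endothelial identity genes spread to both sides from -1.11 to 2.64.

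Of 7 tested genes of venous and activated endothelium, 5 (71.4%) were higher at 24 than at 2 months, against 19.2% of all genes, and 0 were lower. The list's median log2 difference was 0.86 against 0.03 for all genes, with between 2 and 6 calls over the alternatives. Icam1, which lets leukocytes adhere, stood at 12.9, 12.3, 20.02 and 12.7 CPM at 2 months, at 26.4, 23.4 and 26.6 CPM at 18 months and at 26.6, 24.5 and 27.4 CPM at 24 months. It was the 1 gene of the list called at 18 months (log2 difference 0.82, edgeR adjusted p = 0.0218), and at 24 months its difference was 0.86 (adjusted p = 0.00693). Vcam1, another leukocyte adhesion molecule (0.92, adjusted p = 0.0306), Nr2f2, the transcription factor of venous identity (0.48, adjusted p = 0.0241), and Selp, the adhesion molecule stored together with Vwf protein (0.94, adjusted p = 0.0466), were higher at 24 months. Sele, an adhesion molecule of activated endothelium (-0.41, adjusted p = 0.648), and Ephb4, a venous receptor (0.24, adjusted p = 0.201), did not pass. Ackr1, the chemokine receptor of venules, also passed (edgeR adjusted p = 0.00443) but was scarce, with no count in 2 of 4 young samples and a mean of 1.43 CPM at 24 months. Icam1 at 24 months was kept in all 19 alternatives. Its 18 month call was lost without 2 month replicate 1, 2 or 4 or 18 month replicate 2 or 3-4 (adjusted p up to 0.0750). Vcam1 was lost with no filter on low counts and without 2 month replicate 1, 2 or 4 or 24 month replicate 1 (up to 0.0863), Nr2f2 without 2 month replicate 1 or 3 or 24 month replicate 2 or 3 (up to 0.0733), and Selp under 10 of 19 alternatives, among them each of 7 samples left out (up to 0.146). Macrophages express some of these adhesion genes too, and the macrophage sum given above rose with them, whose part was not tested. The cells that make Nr2f2, which averaged 118 CPM at 2 months and 165 CPM at 24 months, were not identified.

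Of 7 arterial genes 1 (14.3%) was called between 2 and 24 months, against 35.0% of all genes. It was Sema3g, lower at 24 months (log2 difference -0.88, edgeR adjusted p = 0.0498), and 12 of 19 alternatives lost it (adjusted p up to 0.134). The connexin gene Gja4 (-0.42, adjusted p = 0.0666) and the Notch pathway genes Hey1 (-0.42, 0.140) and Jag1 (0.44, 0.128) did not pass. Among 10 genes of pericytes and smooth muscle, the cells around vessels, 2 rose between 2 and 24 months, near the 19.2% of all genes, and the count was 0 to 5 over the alternatives. Cspg4 (NG2) and Notch3, both of pericytes, did not pass (log2 differences -0.30 and -0.40, edgeR adjusted p = 0.0944 and 0.163). Des, the intermediate filament protein desmin, averaged 105 ± 73.4 CPM (SD, n = 3) against 20.4 ± 4.01 CPM (n = 4, edgeR adjusted p = 0.0203). Its 24 month replicate 3 stood at 21.7 CPM, inside the young range, and leaving out either 24 month replicate 2 or 2 month replicate 2, a replicate block or no filter on low counts ended the call (adjusted p up to 0.0728). Tagln, the actin-binding protein transgelin, rose by 1.11 on the log2 scale (adjusted p = 0.0401), a call lost under 8 of 19 alternatives (up to 0.179), among them without any one 2 month sample.

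Of 22 further genes of the VEGF and angiopoietin systems, 1 (4.55%) was called at 18 months, lower, against 5.51% of all genes called lower. At 24 months 2 rose and 4 fell against 2 months, which is 27.3% against 35.0% of all genes, with a median log2 difference of -0.26 and between 4 and 8 calls over the alternatives. The other VEGF ligands Vegfb, Vegfc, Vegfd and Pgf, the coreceptors Nrp1 and Nrp2 and the lymphatic receptor Flt4 passed in no comparison by edgeR. Angptl4, a secreted inhibitor of lipoprotein lipase, fell from 146, 153, 136 and 179 CPM at 2 months to 103, 75.7 and 72.0 CPM at 18 months and 85.2, 75.1 and 64.2 CPM at 24 months. No older sample reached the young range, and the log2 differences were -0.88 (edgeR adjusted p = 0.0150) and -1.04 (adjusted p = 0.00289), the former lost without 18 month replicate 2 or 3-4 (adjusted p up to 0.0577). Vash1, an inhibitor of angiogenesis made by endothelium (log2 difference -1.37, adjusted p = 0.0152), and Pdgfb, the endothelial signal that recruits pericytes (-0.90, adjusted p = 0.0110), fell between 2 and 24 months. Adm, the vasodilator adrenomedullin, rose from 3.98 ± 0.715 CPM (SD, n = 4) to 10.7 ± 4.32 CPM (n = 3, log2 difference 1.43, edgeR adjusted p = 0.00811). The 24 month calls of these 4 genes were kept in all 19 alternatives.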

How the data were processed

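RNA-seq of 11 whole-ovary libraries was analysed from a deposited table of raw counts per gene. Per the submitters' processing notes the authors used FastQC, cutadapt, STAR and HTSeq with mm10. Neither versions, annotation nor a strand setting was found: not given in the sources used here. The coordinates of the 10 genes equal those of GENCODE M21, which gave exon lengths, and 16474 of 54232 genes had no count.

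From the deposited counts, edgeR 4.0.16 (R 4.3.3) fitted all 3 ages in 1 model (TMM, filterByExpr, robust quasi-likelihood, 7 residual degrees of freedom, common biological coefficient of variation 0.320). SE is the log2 fold change divided by the square root of F. Intervals cover 95%. The fit and the ratio test were tested on simulated data. Ratios used CPM with a prior count of 2. Alternatives were library totals alone, other filters, DESeq2 1.42.0 (size factors and Wald test), limma-voom with sample quality weights (limma 3.58.1), a replicate block, the ages compared alone, single samples left out, a prior count of 0.5 for ratios, and replicates 3 and 4 kept apart.

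The members and gene lists were chosen with earlier results of these data known. Named were all 10 members, per list the 4 tested genes lowest in adjusted p in either comparison with 2 months, any called where 5 or fewer were, and for Cdh5, Vegfa and Angpt2 the 4 genes of most similar pattern.

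Replicate numbers recur in the labels. Deviations of same-numbered samples correlated at 0.398, 0.283 and 0.148 between 18 and 24 months, and those of differently numbered samples at -0.339 to 0.144. The labels do not say what a number shares. The main fit did not pair samples, and the replicate number entered only as a block among the alternatives. Between 2 and 18 months same-numbered samples correlated at 0.0741, -0.0576 and -0.0545, and between 2 and 24 months at -0.0278, -0.0755 and -0.109. Counts cover sampling error only.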

Additional observations from a re-analysis of the deposited data

Results flagged for a closer look

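Of 19 sets of 4 values at 2 months that were examined, 4 held 1 sample far from the others. For a single set of normally spread values chance gives about 1 in 20. The sets are the genes and ratios built from those same genes in the same samples. They are not independent, so the count cannot be read as an excess over chance. Vegfa in 2 month replicate 3 stood at 572 CPM, with the nearest sample at 305 CPM. In the same sample the corpus luteum list, in large part genes of steroid synthesis, had its highest sum. The granulosa genes had their lowest sum at 2 months there. The log2 ratio of Vegfa to Flt1 was 2.22 in 2 month replicate 4, with the nearest at 2.08. Kdr over Cdh5 was -0.041 in 2 month replicate 1, with the nearest at -0.27. Vwf over Cdh5 was -2.95 in 2 month replicate 4, with the nearest at -4.10.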

How the results depend on the processing

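Of 30 member results (10 genes in 3 comparisons), 27 kept their call under every alternative and 0 reversed; Vwf at 18 months and Vegfa and Cdh5 at 24 months did not. For 18 against 2 months, edgeR called 2349 genes, 1034 with the replicate block, 4052 with DESeq2, 4000 with replicates 3 and 4 kept apart, and 375 to 2748 without single samples. The count of members was 0 to 1 without single samples. For 24 against 18 months the gene count was 1, and 0 with library totals alone, with the replicate block, with the 2 ages alone and with the block on the 2 ages alone, 194 with DESeq2, and 0 to 2 without single samples. Members called stayed at 0. For 24 against 2 months 7120 genes were called, 4283 to 7467 without single samples. Members called were 2, and 1 with library totals alone (Vegfa adjusted p = 0.0697), with no filter (0.0890) and with the replicate block (0.0515), 3 with DESeq2 size factors, DESeq2 and replicates 3 and 4 apart, and 1 to 3 without single samples. Ratios past the threshold were 0, but 5 with replicates 3 and 4 apart and 0 to 7 without single samples. The replicate block changed no other member call. It ended the 24 against 2 month calls of Sox17, Gpihbp1, Selp, Sema3g, Tagln, Des, Lyve1, Ccl21a and Akr1c18 and the 18 against 2 month calls of Hk2, Ccl21a, Itga2b, Fshr, Amh and Esr2. Library totals alone moved the median log2 difference of all genes from 0.03 to 0.22 (24 against 2 months), 0.01 to 0.10 (18 against 2) and 0.03 to 0.12 (24 against 18), and the share of calls that were higher from 54.9% to 73.0% (24 against 2) and 52.3% to 66.7% (18 against 2). The cause of these changes was not tested. Levels per kilobase, similar patterns and motifs were not recomputed.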

Other observations

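Genes that respond to low oxygen, a known driver of Vegfa, moved in both directions. Of 12 tested, 2 (16.7%) were called between 2 and 18 months, against 11.6% of all genes. Between 2 and 24 months 8 (66.7%) were called, 4 higher and 4 lower, against 35.0% of all genes. The median log2 difference there was 0.33, against 0.03 for all genes. Ndrg1, a stress-induced gene, rose from 28.4 ± 2.49 CPM (SD, n = 4) at 2 months to 76.1 CPM at 18 months and 63.3 ± 21.3 CPM (n = 3) at 24 months (edgeR adjusted p = 0.0127 and 0.00661). Egln3, an oxygen-sensing prolyl hydroxylase, rose 3.08-fold between 2 and 24 months (edgeR adjusted p = 0.0101). The glycolytic enzymes Hk2 and Pgk1 fell, with log2 differences of -1.47 and -0.77 between 24 and 2 months (edgeR adjusted p = 0.00628 and 0.00744). The factors themselves, Hif1a (-0.26, adjusted p = 0.0722) and Epas1 (-0.40, adjusted p = 0.235), did not pass.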
